A study of Mus musculus with 15 samples.

Results

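Submandibular glands of untreated NOD/LTJ mice (5 libraries, called model) were compared with those of untreated ICR mice (5 libraries, called control), over all genes, by RNA sequencing. These are 10 of the 15 libraries of the study, taken by their labels, and the other 5 came from NOD/LTJ mice given SJQYD, a treatment named only by these letters. Both groups carry the genotype label WT and the treatment label none, and the age and sex of the mice are not given in the sources used here. ICR is an outbred stock and NOD/LTJ an inbred strain, so that strain and gland disease cannot be told apart in any difference below. The labels do not say that each library came from its own mouse, so p-values measure the spread between libraries, which may in part be technical. For edgeR's p-values and standard errors this spread was estimated over all 15 libraries, the 5 treated ones included.

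NOD mice develop sialadenitis, an autoimmune inflammation in which lymphocytes gather around the ducts of salivary glands, and they serve as a model of Sjögren's syndrome. Interferons reach such tissue through receptors that activate STAT and IRF transcription factors, which switch on antiviral proteins, immunity GTPases and the machinery that loads peptides onto MHC class I for T cells to inspect. The gland itself is an exporting tissue: acinar cells fold saliva proteins in the endoplasmic reticulum and ship them in coated vesicles to the Golgi, and ducts modify the saliva.

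The labelled tissue was present in every library. Mucl2, a mucin-like product of submandibular acini, took 42.22% to 53.83% of all counts in the control libraries and 25.78% to 45.59% in the model libraries, and the acinar genes Aqp5, Lpo and Bhlha15 and the granular duct genes Egf, Klk1b1 and Ren1 were detected in all 10. Total counts were between 54836440 and 63101584 in control and between 52746925 and 68694263 in model libraries. Some libraries stood apart before any test. Control 2 held lymphocyte transcripts at model levels, model 3 held the most parotid transcripts (171600 summed CPM over 12 parotid genes, against 16920 to 68380 in the other 9 libraries), model 2 the most fat transcripts, and model 4 the highest level of Mup5. The parotid sum did not follow the amylase gene Amy1 in every library, as given below. Values are given as TMM-scaled CPM, a normalised read count, in the order of the library numbers 1 to 5. TMM is a scaling that keeps a few very abundant genes from setting the level of all others. In bulk tissue a lower level can come from fewer cells of a type or from less RNA per cell, and these cannot be told apart.

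Of 18136 genes tested with edgeR, 920 (5.07%) passed an adjusted p of 0.05, with 466 (2.57%) higher and 454 (2.5%) lower in model glands. At least 2-fold changes were 253 higher and 110 lower. The median log2 fold change of all tested genes was 0.03. The balance of directions depends on the scaling. Scaled to the total count alone, the median of all genes was 0.52, and 1523 genes were called higher against 42 lower. Differences below are therefore relative to the TMM scale. Leaving out 1 library moved the total from 354 calls (without model 2) to 1799 (without control 2), and the counts for gene groups below move with it. With only the 2 groups compared in the fit, without the treated libraries, 466 genes were called. Many group counts were then lower, such as 3 for the GTPases induced by interferon gamma and 1 for NF-kB signalling. Each group count below is to be read against the 2.57% of all genes called higher and the 2.5% called lower. A difference is called a rise or a fall only where edgeR's adjusted p was under 0.05.

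Genes of antigen presentation to CD8 T cells held the largest share of rises among the gene lists. Of 25 tested genes of MHC class I and peptide loading 11 rose (44%), 21 had a positive log2 fold change, and their median was 1.01 against 0.03 for all genes. In 9 of the 25 the 5 model libraries all lay above the 5 control libraries, against 3.05% of all genes (2.71% lay wholly below). B2m (ENSMUSG00000060802, chr2:122147686-122153083), the light chain that every classical class I molecule needs, stood at 75.7, 150.1, 104.2, 86.7 and 194.9 CPM in control and 344.1, 265.3, 510.5, 319 and 281.8 CPM in model libraries. The groups did not overlap, and the rise was 1.49 ± 0.25 (SE) log2 units (edgeR adjusted p = 0.0036). Psmb8 (ENSMUSG00000024338, chr17:34197721-34201454), a catalytic subunit that interferon swaps into the proteasome, stood at 11.4, 29.5, 15.5, 14.2 and 33.9 CPM in control and 77.1, 70.5, 67, 65.4 and 55.8 CPM in model libraries. The model libraries lay close together, while control 2 and control 5 were the highest controls, and the rise was 1.68 ± 0.30 (SE, edgeR adjusted p = 0.0064).

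H2-Q4, a nonclassical class I heavy chain, stood at 16.3, 52.5, 23.1, 21.4 and 33.5 CPM in control and 78.5, 74.3, 86.2, 86 and 71.1 CPM in model libraries, without overlap and with a shift of 1.43 ± 0.27 log2 units (SE, edgeR adjusted p = 0.00872). H2-T10, another nonclassical heavy chain, stood at 11.3, 18.2, 23.5, 16.8 and 30.3 CPM in control and 52.5, 44.2, 60, 51.8 and 39.2 CPM in model libraries (1.31 ± 0.21, adjusted p = 0.00243). H2-T10 has a near-identical copy, H2-T22, whose mean was 14.5 CPM in control and 11.9 CPM in model libraries, so reads may be shared between them and the level of each is uncertain.

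Transcripts of neighbouring genes for peptide supply rose together. On chromosome 17, from 34181987 to 34216321 (GRCm38), the 4 neighbouring tested genes Psmb9, Tap1, Psmb8 and Tap2 were all called higher. Tap1, which with Tap2 pumps peptides into the endoplasmic reticulum, stood at 11.2, 33.8, 12.5, 11.4 and 23.5 CPM in control and 60.1, 41.8, 48.4, 39.3 and 46 CPM in model libraries. The rise was 1.35 ± 0.28 (SE). Tap2 stood at 15.5, 34, 22, 22 and 33 CPM in control and 60.6, 48.3, 52.6, 40.5 and 36.3 CPM in model libraries. Its rise came to 0.91 ± 0.20, and Psmb9, the partner subunit of Psmb8, rose by 1.59 ± 0.37 from 9.12 ± 5.8 in control to 27.6 ± 2.99 CPM in model (mean ± SD, n = 5 each). In all 3 genes every model library was above every control library, and control 2 was the highest control. Psmb9 and Tap1 overlap at their ends on opposite strands, and whether the counting used the strand is not given in the sources used here. By comparison, of 31 tested subunits of the constitutive proteasome edgeR called 0 in either direction (0 higher and 5 lower at an unadjusted p under 0.05, and 0 in either direction with DESeq2 and with voom), with a median of -0.09.

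B2m, H2-T10, Psmb8, H2-Q4, Tap1 and Tap2 kept the call without any 1 of the 10 libraries, and Psmb9 lost it without control 1, 3 or 4 or model 1 or 2. Over the fits without 1 library the count for the group ran from 6 (without control 3) to 14 (without control 2). With only the 2 groups compared in the fit it was 5.

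Signalling genes upstream were called in part. Of 22 tested interferon receptors and signal transducers 3 rose (13.64%), against 2.57% of all genes. All 3 were IRF transcription factors, and the median of the group was 0.30. Irf7, the amplifier of type I interferon production, stood at 15.2, 16.7, 11.7, 8.84 and 24.9 CPM in control and 49.2, 36.2, 28.5, 24.6 and 38.6 CPM in model libraries. edgeR put the rise at 1.19 ± 0.28 (SE, edgeR adjusted p = 0.0239). Model 4 lay just under control 5, so the groups overlapped. Irf2 rose by 0.43 ± 0.10 from 7.65 ± 0.12 in control to 10.3 ± 0.994 CPM in model and Irf1 by 0.53 ± 0.13 from 21.7 ± 2.81 in control to 31.2 ± 4.81 CPM in model (mean ± SD, n = 5 each), both without overlap. Irf7 lost its call without control 1 or 3 or model 1, 2 or 5, Irf2 without control 1, 3 or 4 or model 2 or 5 and Irf1 without control 1, 3 or 4 or model 1, 2 or 5. The count of 3 fell to 0 without control 1, control 3, model 2 or model 5 and was 6 without control 2.

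Among 18 tested sensors of foreign or misplaced nucleic acid 4 rose. Tlr7, the endosomal receptor for single-stranded RNA, stood at 0.812, 0.864, 0.246, 0.657 and 0.535 CPM in control and 2.86, 1.64, 1.25, 1.65 and 2.06 CPM in model libraries. This was a rise of 1.6 ± 0.34 (SE, edgeR adjusted p = 0.0137). Unc93b1, the chaperone that carries such receptors to endosomes, rose by 0.62 ± 0.15 from 19.3 ± 3.58 in control to 29.7 ± 6 CPM in model, Ifi204, an interferon-inducible DNA sensor, by 1.15 ± 0.24 from 3.53 ± 0.986 in control to 7.82 ± 1.71 CPM in model, and Zbp1, a sensor of Z-form nucleic acid, by 1.99 ± 0.44 from 1.84 ± 0.95 in control to 7.36 ± 4.34 CPM in model (mean ± SD, n = 5 each). Tlr7 and Ifi204 did not overlap between groups and kept the call without any 1 library. Zbp1 lost it without control 1, and Unc93b1 without control 1, 3 or 4 or model 1, 2 or 3. The count of 4 ran from 2 (without control 1) to 7 (without control 2).

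Of 18 tested GTPases induced by interferon gamma, which attack the vacuoles of intracellular microbes, 6 rose (Iigp1, Irgm1, Igtp, Gbp7, Tgtp2 and Gbp8), all 18 had a positive log2 fold change, and the median was 1.23. Igtp (ENSMUSG00000078853, chr11:58199556-58207591) stood at 4.37, 9.56, 4.02, 3.19 and 8.82 CPM in control and 27.8, 18.1, 17.4, 10 and 25.7 CPM in model libraries. On average it rose by 1.72 ± 0.37 (SE, edgeR adjusted p = 0.0184). The lowest model library, model 4, was just above the highest control, control 2. Iigp1 (ENSMUSG00000054072) stood at 3.83, 4.9, 1.77, 3.32 and 5.12 CPM in control and 15.4, 18.2, 13.3, 10 and 15.1 CPM in model libraries. The rise was 1.92 ± 0.29 (adjusted p = 0.00221), and Irgm1, a regulator of the other family members, rose by 0.78 ± 0.15 from 12.2 ± 2.26 in control to 20.9 ± 3.68 CPM in model (mean ± SD, n = 5 each). Iigp1 and Irgm1 kept the call without any 1 library, Igtp lost it without control 1, and Gbp7 (0.93 ± 0.23) without control 1, 3 or 4 or model 1, 2 or 5. The count ran from 2 (without control 1) to 12 (without control 2).

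Among 39 tested type I interferon-induced antiviral genes 5 rose and 37 had a positive log2 fold change, with a median of 0.73. Ifit1 (ENSMUSG00000034459, chr19:34640871-34650009), which binds viral RNA, stood at 1.34, 1.39, 0.69, 1.01 and 1.46 CPM in control and 5.75, 3.33, 3.74, 4.88 and 5.18 CPM in model libraries. Its rise came to 1.95 ± 0.32 (SE, edgeR adjusted p = 0.003) without overlap. Mx1, which traps viral nucleoproteins, stood at 1.54, 1.3, 1.38, 1.99 and 2.63 CPM in control and 6.79, 2.51, 3.28, 7.95 and 8.99 CPM in model libraries (1.74 ± 0.33, adjusted p = 0.00753). Model 2 was the lowest model library and lay just under control 5. Ifit3 rose by 1.71 ± 0.43 and Parp14 by 0.91 ± 0.24. Ifit3 has a near-identical copy, Ifit3b (0.877 CPM in control and 1.59 CPM in model libraries on average), so its level is uncertain. Ifit1 and Mx1 kept the call without any 1 library, while Ifit3 and Parp14 each lost it without control 1, 3 or 4 or model 1, 2 or 5. The count ran from 2 (without control 1, control 4, model 1 or model 2) to 9 (without control 5).

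**Figure D1:**
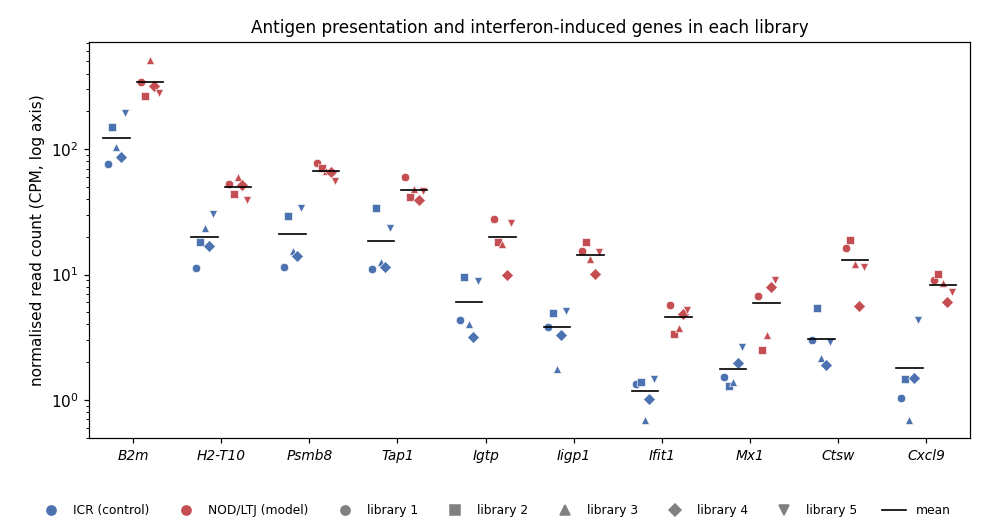
Normalised read counts (CPM, log axis) of 10 genes in each of the 5 control and 5 model libraries, with a symbol for each library number and a bar for the mean. B2m, H2-T10, Psmb8, Tap1, Igtp, Iigp1, Ifit1, Ctsw and Cxcl9 do not overlap between the groups, and Mx1 does, with model 2 just under control 5.

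The promoters of 3 of these genes show the letters through which interferon is known to act. The 150 bases before the start of each gene are given 5′ to 3′ from RefSeq (GRCm38.p6), all on the plus strand, with matches to the core of the interferon-stimulated response element (ISRE, GAAA, 2 free bases and GAAA on either strand) or to the gamma-activated site bound by STAT dimers (GAS, TTC, 3 free bases and GAA) in capitals. Igtp has both side by side, B2m 1 ISRE core farther out, and Ifit1 a pair of ISRE cores on the reverse strand. The regions are chr11:58199406-58199555 (Igtp), chr2:122147537-122147686 (B2m) and chr19:34640739-34640888 (Ifit1). For B2m and Ifit1 the RefSeq start lies inside the annotated span of the gene given above, so the end of the region overlaps that span.
Igtp: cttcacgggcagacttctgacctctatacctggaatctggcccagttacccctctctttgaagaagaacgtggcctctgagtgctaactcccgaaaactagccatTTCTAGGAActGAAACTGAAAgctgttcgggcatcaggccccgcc
B2m: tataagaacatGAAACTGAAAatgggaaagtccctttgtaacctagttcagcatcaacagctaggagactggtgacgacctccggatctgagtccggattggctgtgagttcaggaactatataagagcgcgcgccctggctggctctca
Ifit1: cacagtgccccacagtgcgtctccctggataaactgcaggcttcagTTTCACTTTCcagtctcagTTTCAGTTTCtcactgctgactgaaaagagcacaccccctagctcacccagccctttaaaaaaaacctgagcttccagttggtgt

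In windows of 300 bases around the start, the ISRE core occurred in 487 of 12414 tested genes with a promoter sequence (3.92%). It occurred in 28 of 321 genes called higher (8.72%) and in 9 of 326 called lower (2.76%). It was found in 9 of 10 promoters of the interferon gamma GTPases, in 15 of 31 of the type I antiviral genes and in 5 of 19 of the class I genes. Most of these carriers were not called. Those called higher were the GTPases Gbp7, Igtp, Irgm1 and Tgtp2, the antiviral genes Ifit1 and Ifit3, and B2m and Psme1. The class I carriers Erap1, H2-T22 and H2-T23 were not called and had negative log2 fold changes. Among cytosolic ribosomal proteins 7 of 61 promoters (11.5%) held the core. The GAS letters were found in 8.47% of all promoters and 9.97% of those called higher, and in 6 of 10 of the GTPases, 7 of 31 of the type I antiviral genes and 2 of 19 of the class I genes. These are matches of letters, and whether a factor bound there was not measured.

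Lymphocyte transcripts were high in most model libraries and also in control 2. Summed over 30 tested genes of the T cell receptor complex and costimulation, control libraries lay between 16.36 and 220.1 CPM, with control 2 the highest. Model libraries lay between 71.65 and 469.7 CPM, with model 1 the highest. All 30 genes had a positive log2 fold change, with a median of 1.82, but only Il2rb rose. Il2rb, the shared beta chain of the interleukin 2 and 15 receptors, stood at 2.97, 3.64, 2.41, 1.78 and 2.41 CPM in control and 8.04, 5.2, 4.78, 4.55 and 9.14 CPM in model libraries. edgeR put the rise at 1.26 ± 0.29 (SE, edgeR adjusted p = 0.0206) without overlap. It lost the call without control 4 or model 1 or 5. Cd3e, part of the CD3 complex of T cells, stood at 0.364, 3.85, 0.271, 0.188 and 0.453 CPM in control and 10.7, 2.04, 1.12, 1.59 and 8.02 CPM in model libraries, and was not called (2.17 ± 0.98, adjusted p = 0.214). Control 2 lay above 3 of the model libraries. Without control 2, 17 of the 30 T cell genes were called higher.

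Over 23 tested B cell genes control libraries summed to between 18.65 and 205.4 CPM, again with control 2 the highest. Model libraries summed to between 139.1 and 278.7 CPM. All 23 had a positive log2 fold change (median 1.54), and edgeR called 0 (6 at an unadjusted p under 0.05, 3 with DESeq2 and 7 with voom). Without control 2 edgeR called 18. Ighm, the heavy chain of IgM, stood at 9.51, 32.7, 4.8, 35.9 and 31.3 CPM in control and 66.7, 105.3, 123.5, 145.9 and 43 CPM in model libraries, without overlap yet not called (2.08 ± 0.60, adjusted p = 0.0649). Cxcl13, the chemokine that gathers B cells into follicles, stood at 1.88, 3.94, 0, 1.62 and 1.11 CPM in control and 8.61, 7.18, 9.84, 12.5 and 5.26 CPM in model libraries, also without overlap and not called (2.34 ± 0.74, adjusted p = 0.0869).

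Of 20 tested genes of plasma cells and immunoglobulin constant regions 3 rose, with a median of 1.31. Irf4, a transcription factor that plasma cells need, rose by 1.80 ± 0.43 from 0.866 ± 0.631 in control to 3.05 ± 1.02 CPM in model, and Tnfrsf13b, a receptor for the survival factors BAFF and APRIL, by 1.58 ± 0.41 from 1.14 ± 0.7 in control to 3.41 ± 0.81 CPM in model (mean ± SD, n = 5 each). Iglc1, a lambda light chain constant region, stood at 0.028, 0.504, 0, 3.47 and 1.01 CPM in control and 22.3, 26.9, 9.07, 21.7 and 6.24 CPM in model libraries. This was a rise of 4.06 ± 0.91 (SE, edgeR adjusted p = 0.0261). The related Iglc2, with 2.22 ± 0.68, was not called (adjusted p = 0.0775). Irf4 and Iglc1 lost the call without control 1 or 5 or model 1 or 2, and Tnfrsf13b without control 1, 3, 4 or 5 or model 1, 2, 3 or 5. The count fell to 0 without control 1, model 1 or model 2 and was 5 without control 2 or control 4.

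Genes of cytotoxic lymphocytes rose in part. Among 18 tested genes of cytotoxic granules and CD8 4 rose, all 18 had a positive log2 fold change, and the median was 1.44. Ctsw, a protease of cytotoxic lymphocytes, stood at 2.99, 5.4, 2.14, 1.9 and 2.92 CPM in control and 16.3, 19, 12.2, 5.64 and 11.6 CPM in model libraries. On average it rose by 2.07 ± 0.34 (SE, edgeR adjusted p = 0.00362). Every model library lay above every control, and the call held without any 1 library. Ccl5, a chemokine these cells secrete, stood at 2.66, 6.45, 2.22, 2.93 and 4.75 CPM in control and 27.4, 10.7, 9.42, 8.72 and 25.2 CPM in model libraries (2.09 ± 0.48, adjusted p = 0.0269), and Nkg7, a granule membrane protein, rose by 1.36 ± 0.37 from 1.78 ± 0.836 in control to 4.6 ± 1.32 CPM in model (mean ± SD, n = 5 each). Gzmk, a granzyme, was at 0 in 4 control libraries and at 0.0751 CPM in control 4, against 0.115, 0.613, 0.613, 0.601 and 0.149 CPM in model 1 to 5 (adjusted p = 0.0289). Ccl5 lost the call without control 1, 3, 4 or 5 or model 1 or 5, Nkg7 without control 1, 3 or 4 or model 1, 2, 3 or 5 and Gzmk without control 1, 3 or 5 or model 2 or 3. The count was 1 without control 1 or control 3. Gzmk passed the filter for level through NOD/LTJ libraries. With only the 2 groups compared in the fit, 3 of 16 tested genes of this group rose.

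Several lectin receptors of natural killer cells were nearly absent from control glands. Of 18 tested receptors 6 rose (Klra7, Klra1, Klra8, Klra13-ps, Klra9 and Klra5), and the group summed to at most 13.0 CPM in control libraries and to at least 26.62 CPM in model libraries. Klra7 (ENSMUSG00000067599, chr6:130218605-130233322) stood at 0.28, 0.216, 0, 0.3 and 0.35 CPM in control and 8.05, 11.3, 6.33, 3.9 and 4.62 CPM in model libraries. The rise was 4.87 ± 0.55 (SE, edgeR adjusted p = 0.000172). Klra1 stood at 0.28, 0.126, 0, 0.488 and 0 CPM in control and 6.1, 8.25, 5.49, 4.75 and 4.97 CPM in model libraries (5.02 ± 0.69, adjusted p = 0.0014), and Klra8, which detects a cytomegalovirus protein in some strains, at 0, 0, 0, 0.244 and 0.185 CPM in control and 2.57, 4.06, 2.72, 2.25 and 1.55 CPM in model libraries (4.84 ± 0.79, adjusted p = 0.00372). The controls were at or near 0, so these folds are imprecise. Klra5 was at 0 in every control library, so no fold is given for it. Of 24 listed receptors 18 passed the filter for level. Those at or near 0 in control, such as Klra5 and Klra8, passed it through NOD/LTJ libraries. The share of tested receptors that rose therefore depends in part on the filter. The count of 6 was 4 without model 2, and with only the 2 groups compared in the fit 5 of 16 tested receptors rose. Klra8, Klra9 and Klra7 are neighbours among tested genes on chromosome 6 (130115226 to 130233322). The Klra genes resemble each other, and Klra9 has a near-identical copy, Klra10, so the level of a single receptor is uncertain. Klrk1, the activating receptor NKG2D, stood at 1.06, 1.15, 1.23, 1.37 and 2.53 CPM in control and 3.22, 4.64, 3.09, 2.28 and 2.69 CPM in model libraries and was not called (1.11 ± 0.34, adjusted p = 0.0698). In treated NOD/LTJ glands Klra7 ran from 2.18 to 5.71 CPM, values given only side by side.

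**Figure D2:**
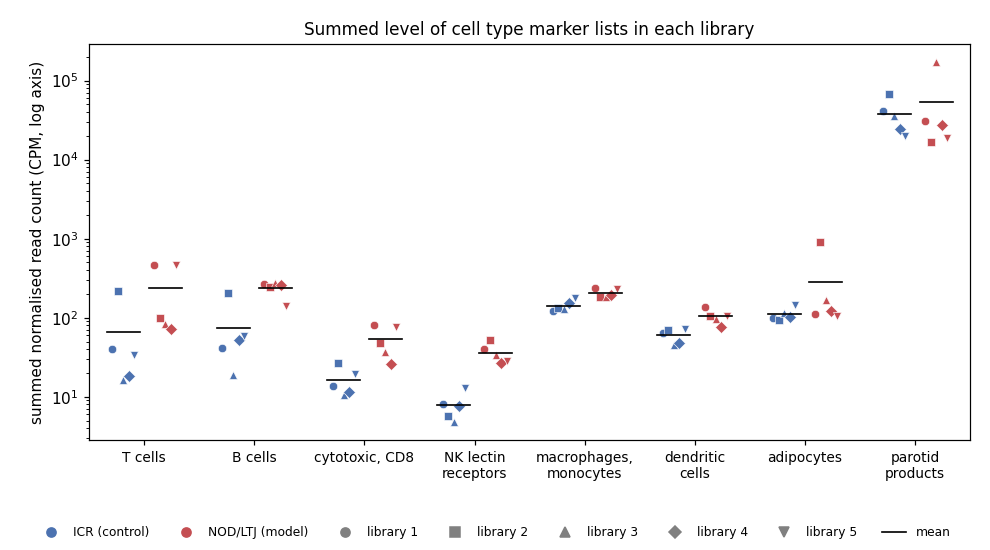
Summed normalised read count (CPM, log axis) of 8 marker lists in each control and model library, with a symbol for each library number and a bar for the mean. Control 2 lies inside the model range for T cells and B cells but below it for the lectin receptors of natural killer cells, and model 2 stands above all others for adipocytes, as does model 3 for parotid products.

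Some genes of antigen-presenting cells rose. Of 18 tested dendritic cell genes 3 rose, with a median of 1.19, and the summed level did not overlap between control (45.84 to 72.57 CPM) and model (76.49 to 136.0 CPM). Cd86, a costimulatory ligand for T cells, stood at 1.48, 1.78, 1.31, 2.08 and 1.71 CPM in control and 4.57, 3.62, 3.33, 3.42 and 4.57 CPM in model libraries. Its rise came to 1.22 ± 0.21 (SE, edgeR adjusted p = 0.00441). Batf3, the transcription factor of cross-presenting dendritic cells, rose by 1.95 ± 0.37 from 0.543 ± 0.226 in control to 2.1 ± 0.858 CPM in model, and Clec10a, a lectin of dendritic cells and macrophages, by 1.23 ± 0.29 from 2.57 ± 0.78 in control to 6.04 ± 2.01 CPM in model (mean ± SD, n = 5 each). Cd86 and Batf3 kept the call without any 1 library, and Clec10a lost it without control 1 or 3 or model 2. The count was 7 without control 2. Of 23 tested macrophage and monocyte genes 3 rose, with a median of 0.35. Fcgr1, the high-affinity receptor for IgG, stood at 2.07, 1.28, 2, 1.75 and 1.87 CPM in control and 2.85, 4.63, 4.24, 3.33 and 2.99 CPM in model libraries (1.01 ± 0.22, adjusted p = 0.0161), and lost the call without model 2. Aif1 rose by 1.03 ± 0.24 and Cybb, the oxidase subunit of phagocytes, by 1.04 ± 0.25, with the call lost without control 1 or 4 or model 1, 2 or 3 (Aif1) and without model 2 or 3 (Cybb). The macrophage count fell to 0 without model 2.

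MHC class II, which presents to CD4 T cells, stood at higher means without passing the test in most members. Of 14 tested genes 1 rose, H2-DMa, which edits the peptides on class II, at 5.12, 10.2, 5.49, 7.83 and 8.82 CPM in control and 11.9, 12.8, 11.3, 10.3 and 10.4 CPM in model libraries (0.60 ± 0.16, edgeR adjusted p = 0.0428). H2-Ab1, the beta chain of the I-A molecule, stood at 24.7, 45.7, 21.8, 38.2 and 66.9 CPM in control and 73.4, 98.2, 91.4, 60.3 and 46.2 CPM in model libraries and was not called (0.90 ± 0.31, adjusted p = 0.108), nor was Ciita, the master activator of class II genes (1.02 ± 0.34, adjusted p = 0.0888). The count was 0 without control 1, 3 or 4 or model 1, 2, 3 or 5, and 6 without control 2.

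Some signals that recruit leukocytes rose. Of 30 tested chemokines 4 rose, Cxcl9, Ccl5, Cxcl16 and Cxcl1. Cxcl9, which draws activated T cells and is induced by interferon gamma, stood at 1.04, 1.46, 0.69, 1.5 and 4.34 CPM in control and 9.1, 10.2, 8.53, 6.04 and 7.28 CPM in model libraries. edgeR put the rise at 2.18 ± 0.45 (SE, edgeR adjusted p = 0.0141). Control 5 was the highest control and still below model 4, and the call held without any 1 library. Cxcl16 lost its call without control 1, 3 or 4 or model 1 or 2 and Cxcl1 without control 1, 3, 4 or 5 or model 1, 2 or 4, and the chemokine count was 1 without control 1, control 4 or model 1. Of 16 tested genes of endothelial adhesion Icam1 and Vcam1, the ligands by which leukocytes stop on vessel walls, rose. Icam1 stood at 4.31, 9.38, 4.66, 6.16 and 6.62 CPM in control and 14.7, 16.9, 12.7, 11.3 and 10.8 CPM in model libraries (1.09 ± 0.22, adjusted p = 0.0111), and Vcam1 rose by 1.15 ± 0.27 from 2.89 ± 0.87 in control to 6.45 ± 1.57 CPM in model (mean ± SD, n = 5 each), losing its call without control 1 or 3 or model 1. Gcnt1, a glycosyltransferase that builds branched O-glycans on mucins and selectin ligands, fell. It stood at 146.6, 113.4, 164.1, 119.3 and 132.3 CPM in control and 52.7, 57, 73.7, 71.2 and 61.2 CPM in model libraries, a shift of -1.10 ± 0.19 log2 units (SE, adjusted p = 0.00452), without overlap and with the call kept without any 1 library.

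Of 24 tested genes of NF-kB signalling 4 rose, with a median of 0.54. Nfkb2, the precursor of the noncanonical subunit p52, stood at 13.1, 16, 11.3, 10.5 and 12.9 CPM in control and 23.6, 28.6, 18.4, 22.9 and 19 CPM in model libraries. This was a rise of 0.82 ± 0.14 (SE, edgeR adjusted p = 0.00492), and kept the call without any 1 library. Nfkbie, an inhibitor induced by the pathway, rose by 1.32 ± 0.35, the ubiquitin ligase Birc3 by 0.67 ± 0.18 and the adaptor Traf2 by 0.60 ± 0.15. Nfkbie lost the call without control 1, 3 or 4 or model 1, 2, 3 or 5, Birc3 without control 1, 3 or 4 or model 1, 2, 4 or 5 and Traf2 without control 1, 3, 4 or 5 or model 1, 2, 3 or 5. Il34, a ligand of the CSF1 receptor that keeps tissue macrophages alive, was the 1 of 27 tested cytokines that rose, at 7.78, 8.14, 9.21, 9.48 and 8.48 CPM in control and 9.32, 15.4, 13.7, 18.7 and 14.3 CPM in model libraries (0.73 ± 0.16, adjusted p = 0.0161). Of 25 tested complement genes 2 rose. C4b stood at 7.08, 10.9, 6.18, 14.3 and 10.8 CPM in control and 30.8, 38.4, 18.1, 27.4 and 24.3 CPM in model libraries (1.49 ± 0.24, adjusted p = 0.00281), but it has a near-identical copy, C4a (2.51 CPM in control and 4.32 CPM in model libraries on average), so its level is uncertain. Cfp, the stabiliser properdin, rose by 0.72 ± 0.18 from 6.31 ± 1.27 in control to 10.4 ± 2.74 CPM in model and lost the call without control 1, 3, 4 or 5 or model 1, 2 or 5. The NF-kB count ran from 1 (without control 1, 3 or 4 or model 1, 2 or 5) to 8 (without control 2), and the complement count was 1 without the same libraries.

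Of 29 tested genes of cell death 4 rose. Casp1, the inflammasome protease, stood at 1.82, 2.56, 2.05, 2.23 and 1.98 CPM in control and 5.41, 6.5, 5.07, 4.39 and 3.78 CPM in model libraries. On average it rose by 1.24 ± 0.25 (SE, edgeR adjusted p = 0.0115). Casp4 rose by 1.41 ± 0.32 from 1.34 ± 0.39 in control to 3.58 ± 0.65 CPM in model, and Bax, which opens the outer membrane of mitochondria, by 0.55 ± 0.11 from 21.2 ± 3.18 in control to 31 ± 2.74 CPM in model (mean ± SD, n = 5 each). The survival factor Bcl2 rose as well, by 1.04 ± 0.25 from 3.07 ± 0.937 in control to 6.33 ± 1.94 CPM in model. None of the 4 overlapped between groups. Casp1 and Bax kept the call without any 1 library, Casp4 lost it without control 1 or model 2, and Bcl2 without control 3, 4 or 5 or model 1 or 5.

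In the secretory pathway the direction was the opposite, with small shifts. Folding enzymes of the endoplasmic reticulum fell in 7 of 26 tested genes (median -0.44), its degradation and stress-sensing genes in 5 of 21 (-0.35), the translocon and signal peptide machinery in 6 of 30 (-0.35), and the vesicle coats that link it with the Golgi in 13 of 34 (-0.47). In these 4 groups edgeR called 0 genes higher, also at an unadjusted p under 0.05 and with DESeq2 and voom. The summed level of each of the 4 lists overlapped between groups. Model 4 was the highest model library in each and lay inside the control range. For the coats it stood at 2167 CPM, against 2037 to 2739 CPM in control libraries. These falls are relative to the TMM scale: scaled to the total count alone edgeR called 0 of them in either direction and the medians were 0.07, 0.16, 0.15 and 0.04, against 0.52 for all genes. Relative to the median of all genes the folding group stood at -0.47 with TMM and at -0.45 with the total count, and the coats at -0.50 and -0.48. With log2(FPKM + 1) the same differences were -0.23 and -0.27, again with 0 calls.

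Hspa5 (ENSMUSG00000026864, chr2:34771970-34777547), the chief chaperone of the endoplasmic reticulum, stood at 234.8, 174.8, 241.6, 227.2 and 310.2 CPM in control and 154.8, 120.6, 113.1, 167.7 and 91.8 CPM in model libraries. edgeR put the fall at -0.87 ± 0.18 (SE, edgeR adjusted p = 0.0115). Control 2 was the lowest control and lay just above model 4. Hyou1, its nucleotide exchange partner, fell from 42.1 ± 7.77 in control to 23.9 ± 5.62 CPM in model, Manf, a protein that binds it, from 86.2 ± 14.8 in control to 55.5 ± 10.2 CPM in model, and Pdia3, a disulfide isomerase for glycoproteins, from 198.1 ± 32.1 in control to 137.3 ± 16.5 CPM in model (mean ± SD, n = 5 each). Among the degradation genes Edem3, a mannosidase that marks misfolded glycoproteins, stood at 41.1, 32.8, 40.9, 48.6 and 38.1 CPM in control and 23.1, 18.1, 18.1, 28.3 and 24.9 CPM in model libraries (-0.84 ± 0.13, adjusted p = 0.00241). Os9, the lectin that reads this mark, stood at 145.7, 86.6, 139.3, 104.6 and 122.7 CPM in control and 61.5, 70.3, 78.6, 67.7 and 70.6 CPM in model libraries (-0.78 ± 0.13, adjusted p = 0.00381). Neither overlapped between groups. Syvn1, the ligase of the same route, fell by 0.45 ± 0.11 on the log2 scale, a direction that turned to 0.04 with the total count as scale and to 0.03 with FPKM.

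Cargo export held the largest single fall of the 4 lists. Mcfd2 (ENSMUSG00000024150, chr17:87254443-87265935), which with Lman1 forms the receptor that loads secreted glycoproteins into vesicles, stood at 134.1, 102.6, 104.4, 112.7 and 109.7 CPM in control and 52.3, 44, 67.2, 74.4 and 43.9 CPM in model libraries. This was a fall of -1.0 ± 0.15 (SE, edgeR adjusted p = 0.00168). Lman1 (ENSMUSG00000041891) stood at 142.8, 77.6, 98.6, 101.4 and 101.3 CPM in control and 55.3, 49.7, 62.1, 83.7 and 50.3 CPM in model libraries (-0.79 ± 0.16, adjusted p = 0.0111). The Mcfd2 groups did not overlap, while for Lman1 model 4 lay above control 2. Arf4, a GTPase that recruits coats, fell from 133.2 ± 26.4 in control to 75.6 ± 17.7 CPM in model, and Arcn1, a coat subunit of the return path, from 87.1 ± 9.87 in control to 60.5 ± 10.3 CPM in model (mean ± SD, n = 5 each). Of the import machinery, Spcs2, a subunit of signal peptidase, fell from 122.6 ± 25.5 in control to 80.7 ± 8.08 CPM in model, and Srpr, the receptor for the signal recognition particle, from 156.5 ± 19.5 in control to 97.3 ± 25.5 CPM in model. Srp19 fell by 0.43 ± 0.10, which turned to 0.09 with the total count and to 0.05 and 0.06 with FPKM, and Srp54a by 0.58 ± 0.14, uncertain since Srp54b and Srp54c are near-identical.

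Hspa5, Hyou1, Edem3, Os9, Mcfd2, Lman1 and Arf4 kept the call without any 1 library, Manf lost it without model 2, and Arcn1 without control 1 or model 2. The counts ran from 2 to 11 for folding, 2 to 9 for degradation, 0 to 14 for the translocon and 3 to 19 for the coats, lowest without model 2 (folding), control 1 (degradation), control 1, model 2 or model 5 (translocon) and control 1 or model 2 (coats). The highest counts came without control 2, or without model 4 for degradation. With only the 2 groups compared in the fit they were 3 (folding), 4 (degradation), 2 (translocon) and 4 (coats). Pdia3 lost its call without control 1, 3 or 5 or model 2, 3 or 5, Spcs2 without control 1 or 3 or model 2, 3 or 5, Srpr without control 1 or 4 or model 1, 2 or 5, Srp19 without control 1 or 3 or model 2 or 5, Srp54a without control 1 or 4 or model 1, 2 or 5 and Syvn1 without control 1, 3 or 4 or model 2, 3 or 5. The transcription factor Bhlha15, which sets up secretory cells, fell with them and is described below. The integrated stress response, a separate branch led by Atf4, had 0 of 24 tested genes called by edgeR (3 higher and 1 lower at an unadjusted p under 0.05, with 1 call by DESeq2 and 1 by voom), and its median was 0.12. Its member Atf3 stood at 1.88, 2.13, 1.77, 2.16 and 2.3 CPM in control and 2.76, 7.01, 2.19, 10.7 and 1.9 CPM in model libraries and Ddit3 at 9.79, 13.5, 10.2, 10.8 and 9.34 CPM in control and 14, 20.7, 11.3, 20.1 and 11.2 CPM in model libraries, with model 2 and model 4 the highest in both.

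**Figure D3:**
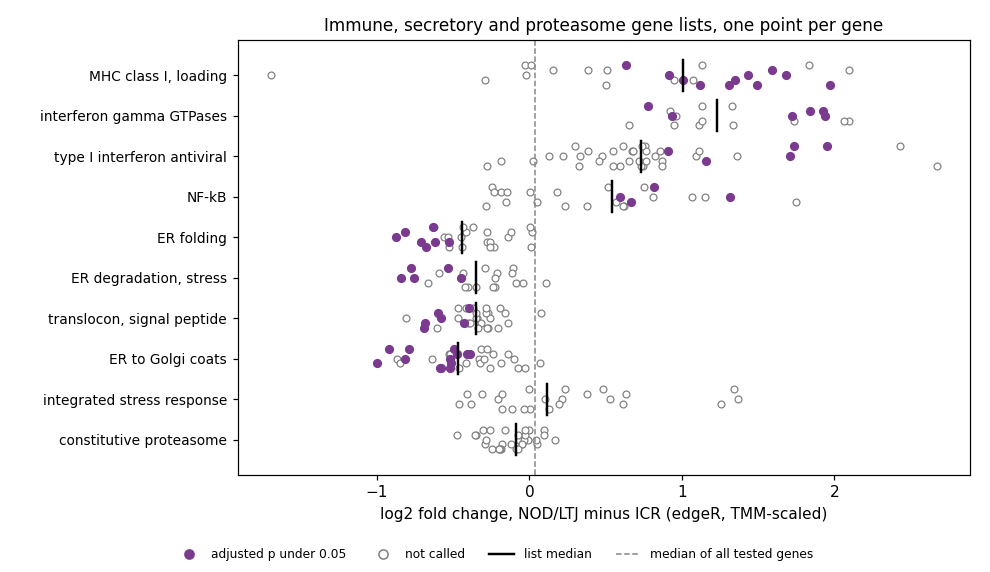
Log2 fold change of model over control (edgeR, TMM-scaled) for each tested gene of 10 lists, filled where the adjusted p was under 0.05, with a bar at each list's median and a dashed line at the median of all tested genes, 0.03. The class I and interferon lists lie mostly to the right of the line and the 4 secretory lists mostly to its left, down to -1.0 for Mcfd2.

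The promoter of Hspa5 carries the endoplasmic reticulum stress response element (ERSE), through which unfolded protein is known to induce chaperones. The 150 bases before its start are given 5′ to 3′ from RefSeq (GRCm38.p6, chr2:34771940-34772089, plus strand), with the match to CCAAT, 9 free bases and CCACG in capitals. The RefSeq start lies inside the annotated span of Hspa5 given above, so most of these bases, the match included, fall within that span.
Hspa5: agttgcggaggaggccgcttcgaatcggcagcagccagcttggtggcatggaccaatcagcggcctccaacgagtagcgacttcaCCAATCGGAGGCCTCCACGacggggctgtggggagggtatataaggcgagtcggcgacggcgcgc
This element was found, on either strand, in 23 of 12414 promoters of 300 bases (0.185%). Of 326 genes called lower 4 held it, Canx, Dnajc3, Hspa5 and Syvn1, and of 321 called higher 0 did. It was present in 7 of 20 promoters of the folding genes. Of these carriers Calr, Creld2, Hsp90b1 and Pdia6 were not called. Canx, a lectin chaperone, fell from 62.7 ± 12 in control to 40.8 ± 8.99 CPM in model, and Dnajc3, a cofactor of Hspa5, from 99.1 ± 14.7 in control to 62 ± 16.2 CPM in model (mean ± SD, n = 5 each). Canx lost its call without control 1, 4 or 5 or model 2 or 5, and Dnajc3 without control 1, 3, 4 or 5 or model 1, 2 or 5. These are matches of letters only.

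Some genes of the gland's own cells fell. Of 25 tested acinar genes 2 fell (8%), against 2.5% of all genes. Bhlha15 (ENSMUSG00000052271, chr5:144190286-144194441) stood at 338.1, 303.3, 281.9, 312.7 and 323.8 CPM in control and 194.8, 219.1, 260.5, 172.8 and 200.3 CPM in model libraries (-0.57 ± 0.15, edgeR adjusted p = 0.032), with no overlap between groups, and Prlr, the prolactin receptor, fell from 16 ± 4.14 in control to 9.4 ± 2.08 CPM in model (mean ± SD, n = 5 each). Bhlha15 lost the call without control 1, 4 or 5 or model 1, 2, 4 or 5, and Prlr without control 1, 3 or 5 or model 1, 2 or 3. Smgc, a mucin-like product of acinar progenitors and of the female gland, stood at 2070, 1666, 2012, 1352 and 2420 CPM in control and 962.7, 443.4, 245.3, 646 and 734.1 CPM in model libraries. Every model library was below every control, yet it was not called (-1.65 ± 0.86, adjusted p = 0.29). Aqp5, the water channel, stood at 452.2, 345.2, 403.1, 464.5 and 336.2 CPM in control and 344.6, 358.9, 327, 429.7 and 252.2 CPM in model libraries (-0.22 ± 0.16, adjusted p = 0.444), and Chrm3, the muscarinic receptor that starts fluid secretion, at 10.9, 7.47, 8.06, 9.48 and 1.11 CPM in control and 4.69, 6.15, 8.54, 7.52 and 4.93 CPM in model libraries (-0.22 ± 0.56, adjusted p = 0.868), and both directions turned when the total count set the scale. Control 5 was far below the other controls in Chrm3.

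Among 20 tested products of the granular ducts edgeR called 0 (0 higher and 2 lower at an unadjusted p under 0.05, and 0 with DESeq2 or voom), although 18 had a negative log2 fold change and the median was -0.98. Egf stood at 89.3, 152.5, 345.3, 117.7 and 556.6 CPM in control and 91.5, 129.1, 171.3, 52.5 and 127.9 CPM in model libraries and was not called (-1.14 ± 0.56, adjusted p = 0.255). Control 3 and control 5 were the highest and model 4 the lowest. Of 19 tested genes of duct ion transport edgeR likewise called 0 (1 higher and 2 lower at an unadjusted p under 0.05, 0 with DESeq2 and 1 with voom). Of 19 tested genes of basal duct and myoepithelium 2 fell (10.53%, against 2.5% of all genes). The tight junction protein Cldn7 fell from 23.6 ± 4.79 in control to 16.3 ± 2.17 CPM in model (mean ± SD, n = 5 each). The adhesion protein Epcam fell from 107.5 ± 23.7 in control to 69.4 ± 19.1 CPM in model. They lost the call without control 1, 4 or 5 or model 1, 2 or 5 (Cldn7) and without control 1, 3, 4 or 5 or model 1, 2, 3 or 5 (Epcam).

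Some epithelial genes fell by more than 2-fold. Agr2 (ENSMUSG00000020581, chr12:35992907-36004087), a disulfide isomerase that mucin-secreting cells use, stood at 17.8, 9.85, 27.8, 16.8 and 12.8 CPM in control and 0.676, 0.715, 0.335, 0.894 and 0.446 CPM in model libraries. Every model library was below 1 CPM, and the fall was -4.79 ± 0.33 log2 units (SE, edgeR adjusted p = 1.88e-07). In treated NOD/LTJ glands it ran from 0.419 to 0.833 CPM. Gucy2c, the guanylate cyclase receptor for guanylin, stood at 16.6, 5.71, 9.53, 8.86 and 10.3 CPM in control and 1.68, 1.12, 1.39, 4.31 and 4.29 CPM in model libraries (-1.99 ± 0.47, adjusted p = 0.0269), and Tspan8, a tetraspanin of mucosal epithelium, at 3.72, 4.84, 5.3, 7 and 18.6 CPM in control and 1.97, 2.09, 2.63, 1.91 and 2.56 CPM in model libraries (-1.82 ± 0.35, adjusted p = 0.00883), both without overlap. Agr2, Tspan8 and Gucy2c were the 3 of 14 tested mucous and sublingual genes that fell (21.43%, against 2.5% of all genes). Agr2 and Tspan8 kept the call without any 1 library, and Gucy2c lost it without control 1 or 5 or model 1, 2 or 3. Bpifb1, an abundant product of the sublingual gland, ran the other way in single libraries, at 0.252, 0.306, 0, 14.5 and 16.3 CPM in control and 1075, 119.2, 8991, 14.2 and 13.4 CPM in model libraries, and was not called (adjusted p = 0.133). Model 3, which also held the most parotid RNA, was the highest by far.

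Uox, urate oxidase, known as a liver enzyme, stood at 7.3, 3.12, 9.02, 3.19 and 5.27 CPM in control and 0.388, 0.0584, 0.0558, 0 and 0.0495 CPM in model libraries, with model 4 at 0 (-5.62 ± 1.07, edgeR adjusted p = 0.0115). Ly6e, a small anchored surface protein that restricts viruses, fell without overlap from 100.3 ± 25.9 in control to 30.9 ± 5.79 CPM in model (-1.70 ± 0.19, adjusted p = 8.51e-05). Sdr39u1, an epimerase family member, fell from 14.3 ± 7.31 in control to 3.12 ± 1.27 CPM in model, and Rmnd1, a factor for mitochondrial translation, from 14.5 ± 6.75 in control to 4.59 ± 0.797 CPM in model (mean ± SD, n = 5 each), the last uncertain since it has a near-identical copy, Gm5512. All 4 kept the call without any 1 library.

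**Figure D4:**
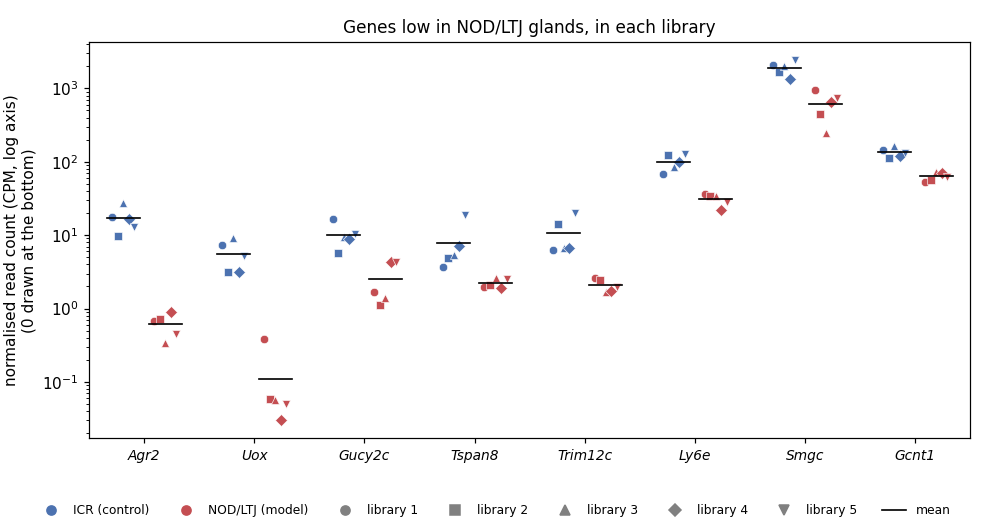
Normalised read counts (CPM, log axis, a value of 0 drawn at the bottom) of 8 genes in each control and model library, with a symbol for each library number and a bar for the mean. None of the 8 overlaps between groups, the gap is widest for Uox and Agr2, and Smgc is the one that was not called.

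The Trim cluster on chromosome 7, a family of antiviral ubiquitin ligases that varies between mouse strains, split. Of 10 tested members Trim30d, Trim5 and Trim34a rose and Trim12c fell. Trim12c stood at 6.27, 14.3, 6.63, 6.63 and 20 CPM in control and 2.62, 2.44, 1.7, 1.73 and 1.95 CPM in model libraries (-2.37 ± 0.30, edgeR adjusted p = 0.000358), Trim30d at 0.14, 0, 0.37, 0.319 and 0.226 CPM in control and 3.67, 1.27, 1.7, 2.53 and 4.03 CPM in model libraries (3.64 ± 0.59, adjusted p = 0.00312) and Trim5 at 3.16, 0.144, 1.58, 1.56 and 0.288 CPM in control and 7.2, 6.78, 5.85, 6.78 and 7.29 CPM in model libraries (2.35 ± 0.55, adjusted p = 0.0261). None of the 3 overlapped between groups. In Trim5 control 2 and control 5 were the lowest and in Trim12c the same libraries were the highest. Trim34a has a near-identical copy, Trim34b, and the members are alike enough that reads may fall on a relative. Trim12c and Trim30d kept the call without any 1 library, and Trim5 lost it without control 3 or 4 or model 1, 2 or 5 and Trim34a without control 1, 3, 4 or 5 or model 1, 2, 3 or 5.

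Other large rises were in genes of unlike roles. Sphk1 (ENSMUSG00000061878, chr11:116530925-116536674), the kinase that makes sphingosine-1-phosphate, stood at 2.24, 3.37, 3.92, 6.48 and 1.85 CPM in control and 15.1, 24.7, 14.8, 26.2 and 27.3 CPM in model libraries. The rise was 2.59 ± 0.30 (SE, edgeR adjusted p = 0.000231). Psmc3ip, a cofactor of meiotic recombinases, stood at 0.7, 0.486, 0.887, 0.901 and 0.926 CPM in control and 4.5, 5.45, 6.01, 6.42 and 3.63 CPM in model libraries (2.74 ± 0.21, adjusted p = 7.91e-07), and Zgrf1, a DNA repair helicase, at 0.308, 0.594, 1.63, 0.451 and 0.905 CPM in control and 6.31, 8.1, 4.11, 5.59 and 13.6 CPM in model libraries (3.28 ± 0.61, adjusted p = 0.00991). No group overlapped in any of the 3, and each kept the call without any 1 library. Slpi, a secreted protease inhibitor of mucosa, rose from 0.509 ± 0.667 in control to 5.77 ± 3.57 CPM in model and lost the call without control 1 or 5 or model 1 or 2. Mup5, a major urinary protein, stood at 10.8, 0.72, 4.39, 2.65 and 5.74 CPM in control and 54.6, 127.1, 108.9, 1008 and 45.9 CPM in model libraries (5.80 ± 1.13, adjusted p = 0.0148), with model 4 far above the other model libraries. Tpm3-rs7 rose from 4.47 ± 4.05 in control to 27.7 ± 6.68 CPM in model, but it is a near-identical copy of Tpm3 (16.3 CPM in control and 12.7 CPM in model libraries), so its level is uncertain.

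Neighbouring called genes of 1 direction formed 4 runs of at least 3, those of Psmb9 to Tap2 and Klra8 to Klra7 among them. On chromosome 8 the metallothioneins Mt2 and Mt1, metal-binding stress proteins, rose with the overlapping Gm45774. Mt1 stood at 34.7, 36.8, 34.7, 38.4 and 50.5 CPM in control and 44.1, 72.9, 72.8, 134 and 54.7 CPM in model libraries (0.96 ± 0.23, edgeR adjusted p = 0.0248) and Mt2 at 21.9, 19.8, 18.7, 14.1 and 34.1 CPM in control and 28, 50.5, 40.9, 98.5 and 41.1 CPM in model libraries (1.25 ± 0.32, adjusted p = 0.039), model 4 being the highest and model 1 the lowest model library in both. Mt1 lost its call without control 1, 3 or 4 or model 2, and Mt2 without control 1, 3 or 4 or model 2, 3 or 5. On chromosome 9, from 35184551 to 35247973, Tirap, Gm39318, Srpr and Foxred1 fell together. Tirap, an adaptor of Toll-like receptors, fell from 19.6 ± 6.51 in control to 10 ± 2.16 CPM in model and Foxred1, an assembly factor of respiratory complex I, from 18 ± 3.14 in control to 10.5 ± 0.432 CPM in model (mean ± SD, n = 5 each). The annotated spans of the 4 genes overlap, so that reads of 1 may be counted for another where the strand was not used.

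The 4 smallest adjusted p-values of all tested genes belonged to a ribosomal protein gene and to near-identical copies of housekeeping genes. Near-identical here means at least 95% identity over at least 80% of the shorter transcript. Of 920 called genes 118 had such a copy among tested genes (12.8%), against 2114 of 18109 with a transcript (11.7%), and of 363 called with at least a 2-fold change 69 did (19%). In 15 pairs a gene and its copy were called in opposite directions. These pairs share members and come from few families. They hold 21 called genes, and Rps2-ps13, Rpsa and Rpl30 recur among them, Rps2-ps13 most often. The number of pairs called in the same direction is not given here, so the 15 have no background to be read against. Rpl26 (ENSMUSG00000060938, chr11:68901583-68906989), a protein of the large ribosomal subunit, stood at 12.2, 8.63, 8.11, 13.2 and 14.4 CPM in control and 406.5, 403, 376.1, 337.1 and 358.2 CPM in model libraries, while its copy Gm15772 (chr5:3236431-3236868) stood at 317.1, 336.5, 359.9, 313 and 317.6 CPM in control and 18.8, 20.3, 20.3, 17.6 and 18.1 CPM in model libraries. The log2 fold changes were 5.06 ± 0.18 and -4.11 ± 0.13 (SE, edgeR adjusted p = 1.28e-11 and 9.86e-13). In treated NOD/LTJ glands Rpl26 ran from 312.1 to 419.2 CPM and Gm15772 from 13.4 to 19.2 CPM.

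Ndufs5 (ENSMUSG00000028648, chr4:123712710-123718186), a subunit of respiratory complex I, and its copy Ndufs5-ps (chr16:42955631-42955949) moved against each other too. Ndufs5 stood at 41.4, 35.4, 39.8, 49 and 51.9 CPM in control and 10.8, 15.3, 12.5, 11.3 and 11.5 CPM in model libraries, and Ndufs5-ps at 0.896, 0.81, 1.08, 0.807 and 0.967 CPM in control and 30.1, 26.1, 24.5, 27.7 and 26.7 CPM in model libraries (-1.83 ± 0.14 and 4.89 ± 0.13, edgeR adjusted p = 7.91e-07 and 2.25e-13). Rpsa, a protein of the small ribosomal subunit, stood at 477.3, 525.6, 228.7, 199.3 and 217.8 CPM in control and 954.9, 709.1, 913.7, 637.1 and 825.5 CPM in model libraries, and Rpsa-ps10 at 299.9, 321.7, 589.2, 446.1 and 472.7 CPM in control and 24.7, 19.1, 25.5, 17.8 and 21.5 CPM in model libraries (1.29 ± 0.26 and -4.29 ± 0.22, adjusted p = 0.0115 and 1.88e-09). None of these 6 overlapped between groups. In Rpsa control 1 and control 2 were well above the other controls, and in Rpsa-ps10 the same pair was the lowest.

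How little separates a gene from its copy is shown by the coding bases that hold every difference between the aligned transcripts of the first 2 pairs, 5′ to 3′ on the gene's own strand (GENCODE M21 transcripts, GRCm38), with the differing bases in capitals. Positions count from 1 at the first base of the start codon. Over 438 coding bases Gm15772 and the coding transcript of Rpl26 nearest to it differ at 2, C177T and T288C, shown within bases 157 to 308. With the longest coding transcript of Rpl26, the one used in the search for copies, identity was 98.2% over 438 bases.
Rpl26: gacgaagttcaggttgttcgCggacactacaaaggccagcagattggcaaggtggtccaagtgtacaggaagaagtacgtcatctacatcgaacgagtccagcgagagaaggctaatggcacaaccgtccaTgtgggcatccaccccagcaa
Gm15772: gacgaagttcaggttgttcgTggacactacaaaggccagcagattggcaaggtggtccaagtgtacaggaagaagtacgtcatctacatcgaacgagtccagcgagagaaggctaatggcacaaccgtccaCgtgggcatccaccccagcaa
Over 319 aligned coding bases Ndufs5 and Ndufs5-ps differ at 2, T81C and A105G, shown within bases 61 to 125.
Ndufs5: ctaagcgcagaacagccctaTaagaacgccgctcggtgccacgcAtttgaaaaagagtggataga
Ndufs5-ps: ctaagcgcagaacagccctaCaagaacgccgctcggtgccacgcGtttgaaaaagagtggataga
Rpsa and Rpsa-ps10 differ at 6 of 885 aligned coding bases. In each case the reference gene carries the first base of the token and the reference copy the last, and which base the transcripts of each strain carry was not measured.

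Summed over each family of near-identical copies, the groups lay closer together. With its 5 copies, the Rpl26 family stood at 344 ± 17.7 CPM in control and 399 ± 31.3 CPM in model libraries (mean ± SD, n = 5 each), while the share of it counted for Rpl26 went from 3.32% ± 0.947 to 94.2% ± 0.222. The Ndufs5 pair stood at 44.4 ± 6.78 and 39.3 ± 1.86 CPM, with a share for Ndufs5 of 97.9% ± 0.396 and 31.2% ± 4.12. The Rpsa family stood at 782 ± 82.6 and 845 ± 139.6 CPM, with shares of 41.5% ± 17.3 and 95.6% ± 0.13. For Rpl30, whose own level fell from 135.8 ± 39.7 in control to 26.1 ± 6.6 CPM in model while its copy Gm12191 rose from 23.3 ± 7.52 in control to 101.2 ± 9.47 CPM in model, the family stood at 184 ± 26.1 and 176 ± 17.7 CPM, with shares of 72.6% ± 10.3 and 14.7% ± 2.54. For Atp5g1, a subunit of ATP synthase, the family stood at 100.6 ± 16.5 and 73.8 ± 9.93 CPM, with shares of 73.6% ± 10.6 and 43.7% ± 7.89.

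Each of the 5 shares gave p = 0.00794 in a two-sided exact permutation test, the smallest this design allows, and 0.00794 adjusted over the 5. The summed levels gave adjusted exact p of 0.0595 (Rpl26), 0.603 (Rpl30), 0.304 (Ndufs5), 0.536 (Rpsa) and 0.0595 (Atp5g1). The families were grouped by sequence after their levels were known, so these shares are no independent evidence. Grouped by annotated names instead, the shares were 99.9% and 100% for Rpl26 (exact permutation p = 1), 84.0% and 35.0% for Rpl30 and 97.9% and 31.2% for Ndufs5 (adjusted exact p = 0.0159 for both). Names miss Gm15772 and Gm12191, and Atp5g1 has no copy by name. Reads that fit several copies can be counted for any of them, so the level of a single copy is uncertain.

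**Figure D5:**
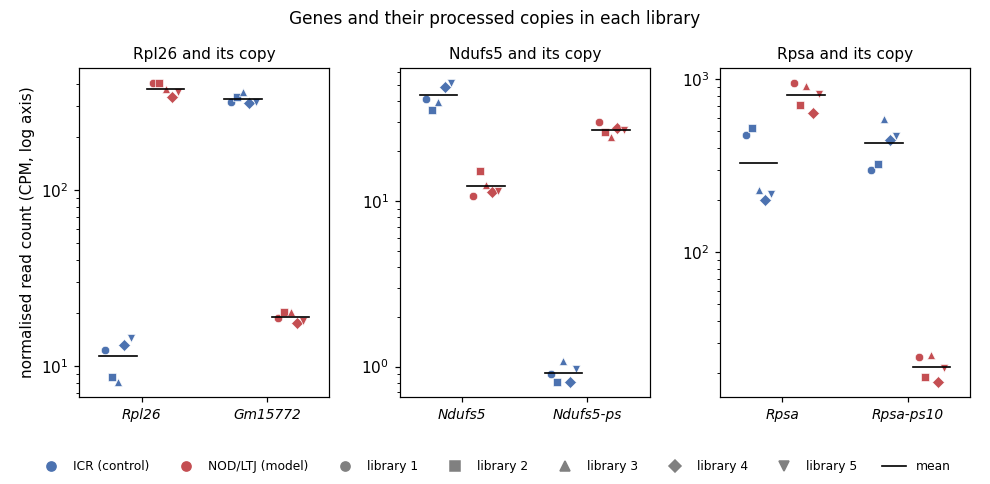
Normalised read counts (CPM, log axis) of 3 genes and 1 near-identical copy of each in the 5 control and 5 model libraries, with a symbol for each library number and a bar for the mean. In every panel the gene and its copy shift in opposite directions between the groups, and no group overlaps within a gene.

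The remaining groups are to be read against 2.57% of all genes called higher and 2.5% called lower. Of 85 tested ribosomal proteins 4 rose (4.71%) and 1 fell (1.18%), with Rpl26, Rpsa and Rpl30 among these 5. Of 69 nuclear genes of oxidative phosphorylation 3 fell (4.35%), with Ndufs5 and Atp5g1 among them. Of 20 clock genes 3 fell (15%), a count of 0 without control 1, control 4, model 1 or model 2. Cry1, a repressor of the clock, fell from 7.77 ± 2.45 in control to 3.8 ± 0.625 CPM in model (mean ± SD, n = 5 each). Nfil3 fell from 36.8 ± 11.7 in control to 19 ± 5.38 CPM in model and Rora from 9.23 ± 0.957 in control to 6.27 ± 0.704 CPM in model. Of 35 antioxidant genes Gpx3, a secreted peroxidase, rose, at 11, 9.26, 8.99, 11.6 and 13.1 CPM in control and 25.2, 103.2, 24.6, 33.3 and 24 CPM in model libraries (1.96 ± 0.46, edgeR adjusted p = 0.0289), with model 2 far above the rest, and the mitochondrial dismutase Sod2 fell from 61.8 ± 10.2 in control to 42.1 ± 4.73 CPM in model. Gpx3 lost its call without control 1, 3, 4 or 5 and Sod2 without control 1, 3 or 5 or model 1 or 5. Among 25 genes of cell division edgeR called 0 (0 higher and 1 lower at an unadjusted p under 0.05, and 0 with DESeq2 or voom), and among 27 fibroblast and matrix genes 0 (0 and 3, and 0 with DESeq2 or voom).

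Markers of tissue next to the gland or passing through it were counted as well, and their part in the results above was not tested. Of 15 tested genes of skeletal muscle 3 rose, and the list summed to between 17.75 and 28.77 CPM in control and between 27.15 and 43.57 CPM in model libraries. Eno3, the muscle enolase, stood at 13.9, 19.2, 12, 13.1 and 7.8 CPM in control and 20.5, 29.2, 34.2, 17.6 and 19.4 CPM in model libraries (0.88 ± 0.24, edgeR adjusted p = 0.0466), and Tnnt3, a troponin of fast fibres, was at 0 in every control library and at 0.302, 0.394, 0.362, 0.37 and 0.099 CPM in model 1 to 5, so no fold is given. Eno3 made up a large part of the summed muscle level, such as 34.2 of 43.57 CPM in model 3 and 7.8 of 17.75 CPM in control 5. Its call was lost without control 1, 3, 4 or 5 or model 1, 2, 3 or 5. Tnnt3 passed the filter for level through NOD/LTJ libraries. With only the 2 groups compared in the fit, 10 muscle genes were tested and 0 called. Of 6 tested red cell genes Hba-a2, an alpha globin, rose from 15.2 ± 10.5 in control to 49.1 ± 9.03 CPM in model, uncertain since Hba-a1 is near-identical, and lost the call without control 1, 3, 4 or 5 or model 1, 2, 3 or 5. Of 15 fat genes edgeR called 0 (5 higher and 0 lower at an unadjusted p under 0.05, 1 with DESeq2 and 0 with voom), though all had a positive log2 fold change. The fat carrier Fabp4 stood at 9.74, 7.42, 9.07, 8.73 and 20.9 CPM in control and 13.1, 180, 20.4, 14.5 and 15 CPM in model libraries, with model 2 alone high. Of 12 parotid products edgeR called 0 (0 at an unadjusted p under 0.05 and 0 with DESeq2 or voom). Amy1, the salivary amylase, stood at 1348, 4410, 20.3, 40 and 48.3 CPM in control and 2443, 213, 20270, 30 and 32.1 CPM in model libraries, highest in model 3. The sum over the parotid list did not follow Amy1 in every library, at 40640 CPM in control 1 and 35860 CPM in control 3. Without control 2 and model 3 together, 1448 genes were called, 825 higher and 623 lower, among them 776 of the 920.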

How the data were processed

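RNA from the submandibular glands was selected by oligo-dT and made into strand-marked libraries with molecular identifiers, per the labels' protocols. The authors deposited raw counts per gene and FPKM values (reads scaled by gene length and library size) for 15 libraries. The submitters' processing notes list StringTie 1.3.4d, UMI-tools, HISAT2 2.0.4, edgeR, cutadapt 1.9 and DESeq2, and the roles of these tools and whether counting used strand or identifiers are not given in the sources used here. The notes name mm9, while the coordinates of 29433 of 32385 genes (90.9%) match GRCm38, which is used here.

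The deposited counts were tested with edgeR 4.0.16 (R 4.3.3, limma 3.58.1): quasi-likelihood fit of 3 group means over all 15 libraries, so that treated libraries add to the estimate of spread only, with TMM scaling, filterByExpr and Benjamini-Hochberg adjustment at 0.05. CPM are TMM-scaled. The test was also run on counts simulated from average levels and dispersions of the same fit. No library was made to stand apart in them, so that run cannot show how calls depend on single libraries. Its outcome is not given here. Group alternatives were other scalings, filters, DESeq2 1.42.0, voom, only the compared groups, FPKM on a log2 scale, leaving out each library and a block on the replicate number. Copy shares were tested by exact permutation. A value of 3 counts per library was taken as the floor of detection, and this and all intervals of counting cover counting error only.

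Genes were named by rule: up to 4 members of each list with the smallest p, the 10 largest rises and falls among called genes of at least 5 CPM and 2-fold change without overlap, neighbouring called genes, the copy families and 11 fixed genes. Near-identical partners, further members of small counts and genes given as uncalled examples were named after their values were seen. The members and lists were chosen with earlier results of these data known. FPKM values were used only as an alternative. Some genes of the lists are not reported here.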

Additional observations from a re-analysis of the deposited data

Results flagged for a closer look

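Within each group of 5 libraries, 346 combinations of a named gene and a group were searched, on a log2 scale of CPM, for 1 library far from the other 4 (a gap over 0.71 of the whole range), and 17 were found. Chance flags about 1 in 20 groups, so a number of this size is near what chance gives. Levels are TMM-scaled CPM.

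Control 5 stood apart in 4 genes. Chrm3, the muscarinic receptor, was low there at 1.11 against 7.47 to 10.9 in the other controls. Fabp4, the fat carrier, was high at 20.9 against 7.42 to 9.74, Klrk1, an activating receptor of natural killer cells, at 2.53 against 1.06 to 1.37, and Mt1, a metallothionein, at 50.5 against 34.7 to 38.4.

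Control 3 was the lowest control in 4 immune genes. The chemokine Cxcl1 was at 0.0985 against 0.308 to 0.432, the DNA sensor Ifi204 at 1.87 against 3.39 to 4.30, the lectin receptor Klra7 at 0 against 0.216 to 0.350, and the light chain constant region Iglc2 at 0 against 1.68 to 5.80. Control 2 was high in Cd3e, part of the CD3 complex of T cells, at 3.85 against 0.188 to 0.453, and low in the chaperone cofactor Dnajc3, at 74.0 against 101.2 to 111.3. Control 1 was high in Tpm3-rs7 at 11.7 against 2.03 to 3.08.

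Model 2 was high in Fabp4 at 180.0 against 13.1 to 20.4, in the peroxidase Gpx3 at 103.2 against 24 to 33.3, and in the ribosomal protein gene Rpl36 at 337 against 272 to 280.4. Model 5 was low in the oxidase subunit Cybb at 6.06 against 9.12 to 10.5 and in the troponin Tnnt3 at 0.0990 against 0.302 to 0.394, and high in Ifit3b at 3.04 against 1.1 to 1.28. The causes were not tested.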

How the results depend on the processing

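Against 920 called genes (466 higher, 454 lower), the count was 1565 (1523 and 42) with the library size alone, 1480 (1441 and 39) with log2(FPKM + 1), 1874 (1833 and 41) with log2(FPKM + 0.1), and 559 (522 and 37) with log2(FPKM + 1) and no filter. In these 4 settings 97.32%, 97.36%, 97.81% and 93.38% of calls were higher, against 50.65%. DESeq2 called 1779 (936 and 843), a fit of only the 2 groups compared 466 (219 and 247), voom with quality weights 1376 (658 and 718), no filter 665 (375 and 290), and an adjusted p under 0.01 left 186 (87 and 99). Leaving out 1 library gave 354 to 1799 calls, 174 to 993 higher and 180 to 806 lower, lowest without model 2 and highest without control 2, and without control 2 and model 3 the count was 1448 (825 and 623). Other scaling factors kept the count, 930 with RLE and 896 with upper quartile factors. The causes were not tested.

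A replicate block on the shared library numbers gave 896 calls (474 and 422), of which 735 were among the 920. The labels share only a number, and same-numbered libraries correlated at -0.1333, -0.0892, 0.0435, 0.1309 and -0.0381, so the numbers were not taken as pairs.

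Some log2 fold changes, nearly all small, changed sign. In the order library size alone, log2(FPKM + 1) with or without the filter, and log2(FPKM + 0.1), they were 0.2835, 0.2464 and 0.2482 for Aqp5, 0.2937, 0.1516 and 0.4262 for Chrm3, 0.1511, 0.3615 and 0.5854 for H2-T22, 0.0936, 0.0537 and 0.0623 for Srp19, 0.0441, 0.0256 and 0.029 for Syvn1, and 0.0761, 0.0816 and 0.1499 for Tpm3. Car6 gave 0.0055 with the library size alone. With voom Chrm3 gave 0.0052 and H2-T22 0.2856. H2-T22 also gave 0.0692 with the block, between -0.5263 (without control 4) and 0.264 (without control 2) over the fits that left out 1 library, and 0.2127 without control 2 and model 3. Amy1 gave -0.1782 with the block and between -0.7871 (without model 3) and 3.6619 (without control 2) over the fits that left out 1 library. With families set by sequence identity, the share of a copy family taken by Rpl26 differed by 90.88 percentage points and the share of a copy family taken by Atp5g1 by -29.9. That grouping was chosen after seeing the data.

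Depth limits genes near the floor of 0.0418 to 0.084 CPM, such as Gzmk, Klra5, Tnnt3 and Uox. The count file holds 14040 values of 4 against 8483 of 3 and 4460 of 5, and the origin of that excess was not tested.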
